A study of Mus musculus with 21 samples.

Results

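The genes encoding secreted Wnt antagonists were followed in epidermal keratinocytes of mice in which human p16 had been induced for 6 months. The 10 genes are Dkk1, Dkk2, Dkk3, Dkkl1, Sfrp1, Sfrp2, Sfrp4, Sfrp5, Wif1 and Frzb, out of 22050 entries in the expression table. They were chosen by name from the Dickkopf and Frizzled-related families with Wif1, and Dkk4 is not among them. Earlier results of these data were known when they were chosen. All 10 have an entry, 7 had at least 1 read in some sample, and 5 had a mean value high enough to test. Sfrp1 and Dkk3 were lower in p16 cells, at 57.6% and 48.0% of the control mean. Wif1, Dkkl1 and Sfrp2 did not pass the test, and Sfrp4, Sfrp5 and Frzb had 0 reads in every sample.

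Male mice of 2 genotypes, on a mixed FVB, C57Bl6 and 129sv background, were compared, and both received doxycycline from 3 weeks of age for 6 months. The p16 group carried K5-rtTA, tet-GFP and tet-p16, and the control group carried K5-rtTA and tet-GFP, so controls share the doxycycline, the rtTA driver and GFP. The keratin 5 promoter drives rtTA in basal epidermal cells, those of the hair follicle included, so the sorted cells are a mixture of follicle and interfollicular keratinocytes. GFP+ cells of the dorsal skin were sorted after cells with CD140a, CD45 or CD31 on their surface were gated out, and about 80000 cells pooled from 3 mice made 1 sample. Each group has 4 samples, which came from 3 independent experiments, and the experiment of each sample is not given in the sources used here. A second profiling of 13 samples was not analysed here.

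Wnt proteins signal by joining a Frizzled receptor and the co-receptor Lrp5 or Lrp6 at the cell surface, which stabilises beta-catenin. Frizzled-related proteins carry a Frizzled-like cysteine-rich domain and bind Wnt proteins outside the cell, and Wif1 binds them through a domain of its own. Dickkopf proteins of the Dkk1, Dkk2 and Dkk4 type occupy Lrp5 and Lrp6 instead, together with Kremen proteins, while Dkk3 is a divergent relative and Dkkl1 is related to Dkk3. In skin, Wnt signals drive the growth of hair follicles, and the resting stem cells of the follicle bulge are known to express Sfrp1, Dkk3 and Wif1.

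Expression was measured with 3′ RNA sequencing, as the reads of a gene over the size factor of its sample, called the normalized value here. Values of single samples are given in the order of replicates 1 to 4. Samples held between 1760953 and 3414362 reads on genes in controls and between 2884544 and 3202975 in p16 cells, and 1 read was worth between 0.742 and 1.53 normalized units. The human CDKN2A transgene was at 0.7, 1.3, 2.5 and 1.5 in the 4 controls and at 1.6, 10.1, 16 and 7.4 in the 4 p16 samples. The library labelled p16 replicate 1, with 2 reads of the transgene, thus lay within the control range of the transgene, and mouse Cdkn2a was between 0.0 and 5.5 in all 8 samples. At Cd34, Shisa2 and Dcn, genes with a wide gap between the groups, that library lay with the other p16 samples, at 8.8, 8.8 and 85.6. Controls were between 121.9 and 238.9, 77.0 and 119.4, and 2.6 and 10.7. The cause of its low transgene count was not tested. Replicate 4 of the p16 group stood apart from the other p16 samples, with a chi-square per degree of freedom of 6.75 to 8.96 against them, where the others differed from each other by 3.05 to 3.31. Basal keratinocyte markers were abundant, with Krt14 between 8427.2 and 15562.2, and the endothelial markers Cdh5, Kdr and Emcn and the myeloid marker Lyz2 had 0 reads in every sample. The GFP transgene was between 4152.0 and 5912.6 in controls and between 3161.8 and 3978.8 in p16 cells. Since the samples that share an experiment are not known, p-values measure the spread between these pools.

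Promoter windows of the members were read from RefSeq on GRCm38.p6, which held 7 of the 10 and not Dkk3, Sfrp1 and Sfrp4. The 250 bases before the start are shown for the 3 genes whose windows lie wholly before the annotated GENCODE gene, all on the scarce side of the family, with 3 reads over the controls and 1 over the p16 samples for Dkk2, 10 and 29 for Sfrp2, and 0 for Sfrp5. Capitals mark CTTTGA or CTTTGT on either strand, the core letters to which Tcf and Lef factors bind, and of these windows Dkk2 alone holds a match.
Dkk2, chr3:132085042-132085291, plus strand: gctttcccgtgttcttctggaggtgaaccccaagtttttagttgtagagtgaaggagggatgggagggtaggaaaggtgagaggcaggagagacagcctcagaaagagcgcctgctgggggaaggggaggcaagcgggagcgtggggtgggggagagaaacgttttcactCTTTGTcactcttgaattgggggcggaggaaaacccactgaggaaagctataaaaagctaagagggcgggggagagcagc
Sfrp2, chr3:83766071-83766320, plus strand: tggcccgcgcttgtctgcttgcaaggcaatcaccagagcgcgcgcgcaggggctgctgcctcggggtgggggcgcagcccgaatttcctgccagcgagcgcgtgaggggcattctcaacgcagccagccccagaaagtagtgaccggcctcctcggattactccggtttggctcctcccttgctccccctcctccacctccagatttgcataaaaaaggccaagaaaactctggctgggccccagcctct
Sfrp5, chr19:42202253-42202502, minus strand: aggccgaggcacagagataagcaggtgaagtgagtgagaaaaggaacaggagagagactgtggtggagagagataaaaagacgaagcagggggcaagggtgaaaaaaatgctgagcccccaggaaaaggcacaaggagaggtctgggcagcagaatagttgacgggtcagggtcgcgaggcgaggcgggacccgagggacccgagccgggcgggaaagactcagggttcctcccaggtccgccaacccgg
A match was present in 3 of the 7 windows, those of Dkk1, Dkk2 and Frzb, and in 27.6% of the 32851 promoters of the same length. The Dkk2 window held 7 CG pairs, the Sfrp2 window 16 and the Sfrp5 window 13, against a median of 6 over all promoters. At least as many pairs were present in 46.3%, 25.4% and 31.5% of promoters. The matches describe letters in a window and nothing was measured at these sites.

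Sfrp1, the Frizzled-related member with the most reads, was lower in every p16 sample than in any control. Its gene lies on chromosome 8 of GRCm38 from 23411502 to 23449632, on the plus strand, with 3 exons (ENSMUSG00000031548). Its normalized value was 661.7, 577.5, 599.7 and 780.7 in the 4 controls and 431.8, 380.2, 299.7 and 397.1 in the 4 p16 samples. The groups did not overlap, and the highest p16 value, that of replicate 1, stayed below the lowest control, that of replicate 2. The mean went from 655 ± 91.1 to 377 ± 56.0 (SD, n = 4 each), a log2 fold change of -0.80 with a standard error of 0.13 and a 95% interval from -1.07 to -0.53 (limma adjusted p = 0.00241). This was 1.74-fold lower (p = 0.0286 in a two-sided exact permutation test, the lowest value that 4 against 4 samples can give). Without the library labelled p16 replicate 1 the log2 fold change was -0.87 (limma adjusted p = 0.00378), and without p16 replicate 4 it was -0.83 (limma adjusted p = 0.00144).

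Dkk3 was lower in every p16 sample as well. The gene lies on chromosome 7 from 112116017 to 112159057, on the minus strand, with 8 exons (ENSMUSG00000030772). Its normalized value was 149.1, 129.6, 102.7 and 100.8 in the 4 controls and 60.8, 50.7, 67.4 and 52.6 in the 4 p16 samples. Control replicates 1 and 2 were the highest samples, every p16 sample lay below every control, and p16 replicate 3 came closest. The mean went from 121 ± 23.1 to 57.9 ± 7.72 (SD, n = 4 each), a log2 fold change of -1.04 with a standard error of 0.16 and a 95% interval from -1.38 to -0.70 (limma adjusted p = 0.00199). This was 2.08-fold lower (p = 0.0286 in the same exact permutation test). Without the library labelled p16 replicate 1 the log2 fold change was -1.06 (limma adjusted p = 0.00704), and without p16 replicate 4 it was -0.99 (limma adjusted p = 0.00237).

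Of the 10 members, 5 were tested and 2 of these were called lower, where 2.61% of the 12782 tested genes were called lower, and 0 members were called higher, where 1.24% of genes were. By p-value, Dkk3 ranked 83 and Sfrp1 ranked 91 among all tested genes. The groups did not overlap at 2 of the 5 tested members, the same pair, and at 9.83% of all tested genes. The median log2 fold change was -0.41 over the 5 tested members and -0.003 over all tested genes. In pools of sorted cells, fewer cells of a type and less RNA per cell cannot be told apart, so these values do not say in which cells the transcripts were fewer. The plot of values by sample shows both gaps and the wide spread of the other 3 genes.

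**Figure D1:**
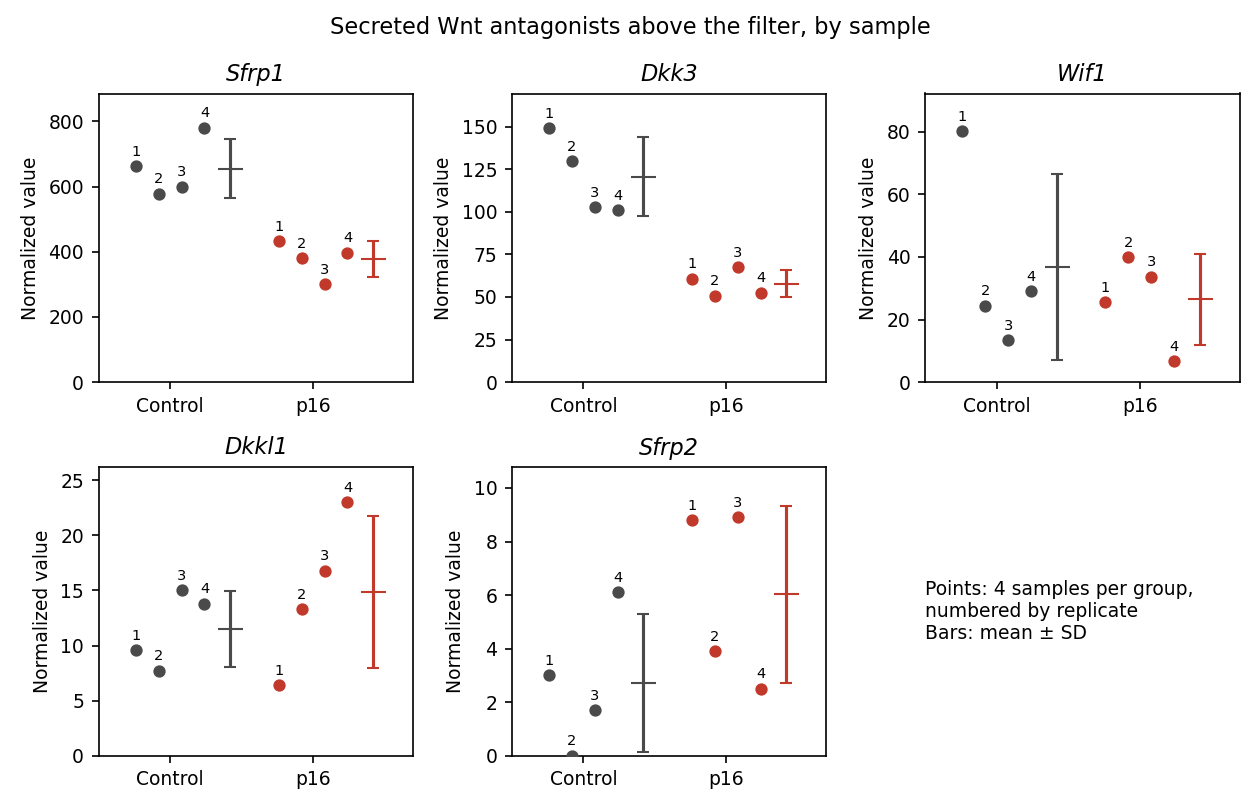
Normalized value (reads divided by the size factor of the sample) of the 5 tested secreted Wnt antagonists in 4 control and 4 p16 samples. Points are samples numbered by replicate and bars are the mean and SD. The p16 points of Sfrp1 (299.7 to 431.8) and Dkk3 (50.7 to 67.4) lie below every control point, and those of Wif1, Dkkl1 and Sfrp2 overlap the controls.

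**Figure D2:**
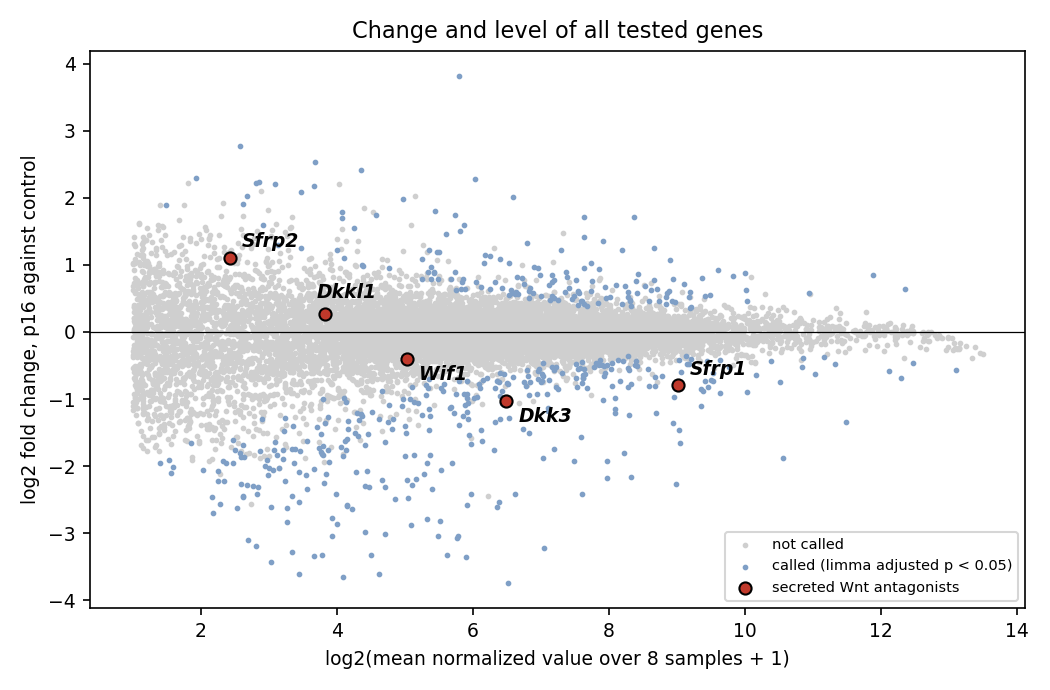
Log2 fold change of p16 against control cells (y axis) by log2 of the mean normalized value plus 1 (x axis) for the 12782 tested genes. Called genes are blue and the 5 tested antagonists are red, and Sfrp1 (-0.80) and Dkk3 (-1.04) sit among the genes called lower.

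Wif1, which binds Wnt proteins and is known from the follicle bulge as are Sfrp1 and Dkk3, varied more within groups than between them. The gene lies on chromosome 10 from 121033960 to 121100650 with up to 10 exons (ENSMUSG00000020218). It was at 80.1, 24.4, 13.4 and 29.0 in the 4 controls and at 25.6, 39.8, 33.7 and 6.6 in the 4 p16 samples. Control replicate 1 was the highest of the 8 samples and p16 replicate 4 the lowest, while p16 replicates 2 and 3 lay above 3 of the controls. The highest sample exceeded the lowest 5.98-fold in controls and 6.03-fold in p16 cells, and the means were 36.7 ± 29.6 and 26.4 ± 14.4 (SD, n = 4 each). The log2 fold change was -0.41 with a 95% interval from -1.53 to 0.72 (limma adjusted p = 0.785), an interval that holds the change of Sfrp1 and of Dkk3 as well as none. Its direction rested on 1 sample at either end, since it was 0.06 without control replicate 1 (limma adjusted p = 0.980) and 0.13 without p16 replicate 4 (limma adjusted p = 0.937). Whether Wif1 differed from Sfrp1 or Dkk3 in its change was not tested.

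Dkkl1, a relative of Dkk3 best known from the testis, was low in all samples. Its gene is on chromosome 7 from 45207519 to 45212147 (ENSMUSG00000030792). Values were 9.6, 7.7, 15.0 and 13.8 in the 4 controls and 6.4, 13.3, 16.8 and 23.0 in the 4 p16 samples. The groups overlapped, and both the lowest and the highest of the 8 values were p16 samples. The mean was 11.5 ± 3.44 in controls and 14.9 ± 6.93 in p16 cells (SD, n = 4 each), and the log2 fold change was 0.26 with a 95% interval from -0.51 to 1.03 (limma adjusted p = 0.803). With 46 reads over the control samples and 72 over the p16 samples, falls of the size seen for Sfrp1 and Dkk3 lie outside this interval, and a rise by 1 on the log2 scale lies inside it.

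Sfrp2, a Frizzled-related protein made by dermal fibroblasts, was close to the limit of what these libraries could count. The gene lies on chromosome 3 from 83766321 to 83774316 (ENSMUSG00000027996), overlapped on the other strand by the antisense gene Gm26771, and the strand setting of the counting is not given in the sources used here. It had 4, 0, 2 and 4 reads in the 4 controls and 11, 5, 10 and 3 in the 4 p16 samples. In normalized values these were 3.0, 0.0, 1.7 and 6.1 in controls and 8.8, 3.9, 8.9 and 2.5 in p16 cells, so p16 replicates 1 and 3 lay above every control and the other two within their range. The log2 fold change was 1.11 with a 95% interval from -0.12 to 2.34 (limma adjusted p = 0.370, exact two-sided permutation test p = 0.171), and no difference was detectable at this depth.

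Because Sfrp2 and several Wnt genes are also made by cells of the dermis, the fibroblast markers were read beside it. Their summed value was between 70.9 and 142 in controls and between 72.4 and 283 in p16 samples, and 1 of 6 tested markers was called higher and 1 lower, Fbln1, whose call held in 3 of 8 fits with 1 sample left out. The called marker that was higher is Dcn, a matrix proteoglycan, at 5.9, 2.6, 4.2 and 10.7 in the 4 controls and at 85.6, 89.8, 203.0 and 36.2 in the 4 p16 samples. The collagen markers were split, and none of them was called. Col1a2 leaned lower, with control values of 4.2 to 17.8 and p16 values of 1.6 to 3.3 (adjusted p = 0.0571 in limma). Col3a1, at the limit of counting, had a control mean of 1.85 and a p16 mean of 0.6. Col1a1 leaned higher as Dcn did, with control values of 0.8 to 2.6 and p16 values of 2.3 to 11.5 (adjusted p = 0.285 in limma). Both Col1a1 and Dcn were highest in p16 replicate 3. Lum had 0 reads in every sample, Dpt reached 1.3 in 1 control and Pdgfra, which encodes CD140a, was at most 3.5, and the part of fibroblasts in the Sfrp2 values was not tested.

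The other 5 members were at or near 0. Dkk1, the prototype Lrp6 antagonist (chromosome 19, 30545863 to 30549665), had a single read, in p16 replicate 4. Dkk2 (chromosome 3, 132085292 to 132180304) had 2 reads in control replicate 3 and 1 each in control replicate 4 and p16 replicate 1. Sfrp4 (chromosome 13, 19623104 to 19632994), Sfrp5 (chromosome 19, 42197971 to 42202252) and Frzb (chromosome 2, 80411970 to 80447625) had 0 reads in all 8 samples. A count of 0 allows up to 3 reads, a normalized value between 2.23 and 4.58 depending on the sample, and this limit covers counting error only. No fold change is given for these genes. Dkk4, the remaining Dickkopf, also had 0 reads, so nearly all Dickkopf reads of these libraries came from Dkk3, which is not of the Lrp6-binding type, and from Dkkl1.

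Summed over the 10 genes, the normalized value was 903.5, 739.2, 734.2 and 931.9 in the 4 controls and 534.2, 487.9, 426.5 and 482.6 in the 4 p16 samples. The mean of these sums was 827 ± 105 in controls and 483 ± 44.1 in p16 cells (SD, n = 4 each), and no p16 sum reached a control sum. Sfrp1 and Dkk3 together made up between 86.1% and 95.7% of it in every sample, so the sum largely repeats these genes. After the group means were subtracted, Sfrp1 and Dkk3 correlated with r = -0.41 over the 8 samples, as a description. Of the p16 samples, replicate 3 had the least Sfrp1 and the most Dkk3.

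The partners through which Dickkopf proteins act were compared next. Lrp5, Lrp6, Kremen1 and Kremen2 were all tested and 0 of 4 were called. Lrp6 was at 251.5, 220.7, 190.4 and 213.9 in the 4 controls and at 189.5, 158.5, 203.0 and 143.9 in the 4 p16 samples. The groups overlapped through p16 replicate 3, and the log2 fold change was -0.34 with a 95% interval from -0.62 to -0.06 (limma adjusted p = 0.199). The median over the 4 genes was -0.13.

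Among 20 other Wnt antagonists and feedback inhibitors, 15 were tested, 3 were called lower and 2 higher. Lower were Shisa2, which holds Frizzled receptors inside the cell, Trabd2b (Tiki2), a membrane protease that cleaves Wnt proteins, and Igfbp4, a secreted growth factor binding protein that can also bind Frizzled and Lrp6. Shisa2 was at 94.2, 77.0, 119.4 and 91.7 in the 4 controls and at 8.8, 15.6, 12.4 and 6.6 in the 4 p16 samples. Its groups were far apart, and its log2 fold change was -3.07 (standard error 0.25, limma adjusted p = 1.11e-05). Trabd2b went from 29.7 ± 11.5 to 3.95 ± 1.5 (SD, n = 4 each), also without overlap, and its log2 fold change was -2.60 (limma adjusted p = 0.000416). Igfbp4 went from 830 ± 91.0 to 482 ± 202 (SD, n = 4 each), and p16 replicate 2, at 783.1, lay within the control range of 741.8 to 944.2. Its log2 fold change of -0.86 (limma adjusted p = 0.0230) stayed called in 4 of 8 fits with 1 sample left out, and the limma adjusted p reached 0.0875 without the library labelled p16 replicate 1.

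The 2 antagonists called higher, Axin2 and Znrf3, are intracellular or membrane inhibitors. The 15 tested genes of the list were split, with 7 higher and 8 lower in p16 cells whether called or not. Among those not called, the log2 fold change was -0.87 for Notum, which was at the limit of counting in p16 cells. It was -0.48 for Nkd1 and 0.62 for Apcdd1. Axin2, a scaffold of the complex that destroys beta-catenin, was at 92.0, 130.9, 97.7 and 106.9 in the 4 controls and at 175.1, 180.4, 188.9 and 167.7 in the 4 p16 samples. The groups did not overlap, and the log2 fold change was 0.74 (standard error 0.13, limma adjusted p = 0.00379, or 0.0504 with replicate 3 of both groups left out). Znrf3, a ubiquitin ligase that removes Frizzled from the membrane, went from 73.4 ± 9.67 to 113 ± 12.1 (SD over 4 samples each, limma adjusted p = 0.0215). It was called in 5 of 8 fits with 1 sample left out, and its limma adjusted p reached 0.0903 without the library labelled p16 replicate 1. Its partner Rnf43 went from 64.4 ± 10.4 to 87.8 ± 12.5 (SD, n = 4 each) without overlap and was not called (limma adjusted p = 0.17). The secreted antagonist Sostdc1, abundant in these cells, was at 2710 ± 480 and 3030 ± 802 (SD, n = 4 each; limma adjusted p = 0.819). The median log2 fold change of the 15 tested genes was -0.48, and it was 0.11 without p16 replicate 4 and 0.03 without control replicate 4.

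On the ligand side, which Frizzled-related proteins and Wif1 bind as a class, 14 of 19 Wnt genes were tested, 4 were called higher (Wnt2, Wnt3a, Wnt5a and Wnt10a) and 0 lower, with a median log2 fold change of 0.43. Without the library labelled p16 replicate 1, or with replicate 3 of both groups left out, 0 ligands were called. There was 1 without control replicate 1 or control replicate 3, and there were 5 without p16 replicate 2. Wnt2 was between 0.7 and 1.7 in controls, at most 3 reads per sample, and stayed called in 2 of 8 fits with 1 sample left out. Of 7 agonists and secretion factors, 4 were tested and 1 was called higher, the Wnt carrier Wls, from 510 ± 35.2 to 655 ± 51.5 (SD over 4 samples each, limma adjusted p = 0.0464). Wls stayed called in 2 of 8 fits with 1 sample left out, and its limma adjusted p was 0.171 without the library labelled p16 replicate 1. Of 10 Frizzled receptors, 9 were tested, 4 were called lower (Fzd1, Fzd2, Fzd4 and Fzd7) and Fzd10 higher, with a median of -0.50. With 1 sample left out, 3 or 4 receptors were called lower and 1 higher. Fzd4 was low, between 5.1 and 7.6 in controls and between 0.0 and 0.9 in p16 cells, where it was at the limit of counting. Fzd2, at 363 ± 92.7 and 179 ± 20.8 (SD, n = 4 each), had a log2 fold change of -0.99, beside -1.04 for Dkk3.

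**Figure D3:**
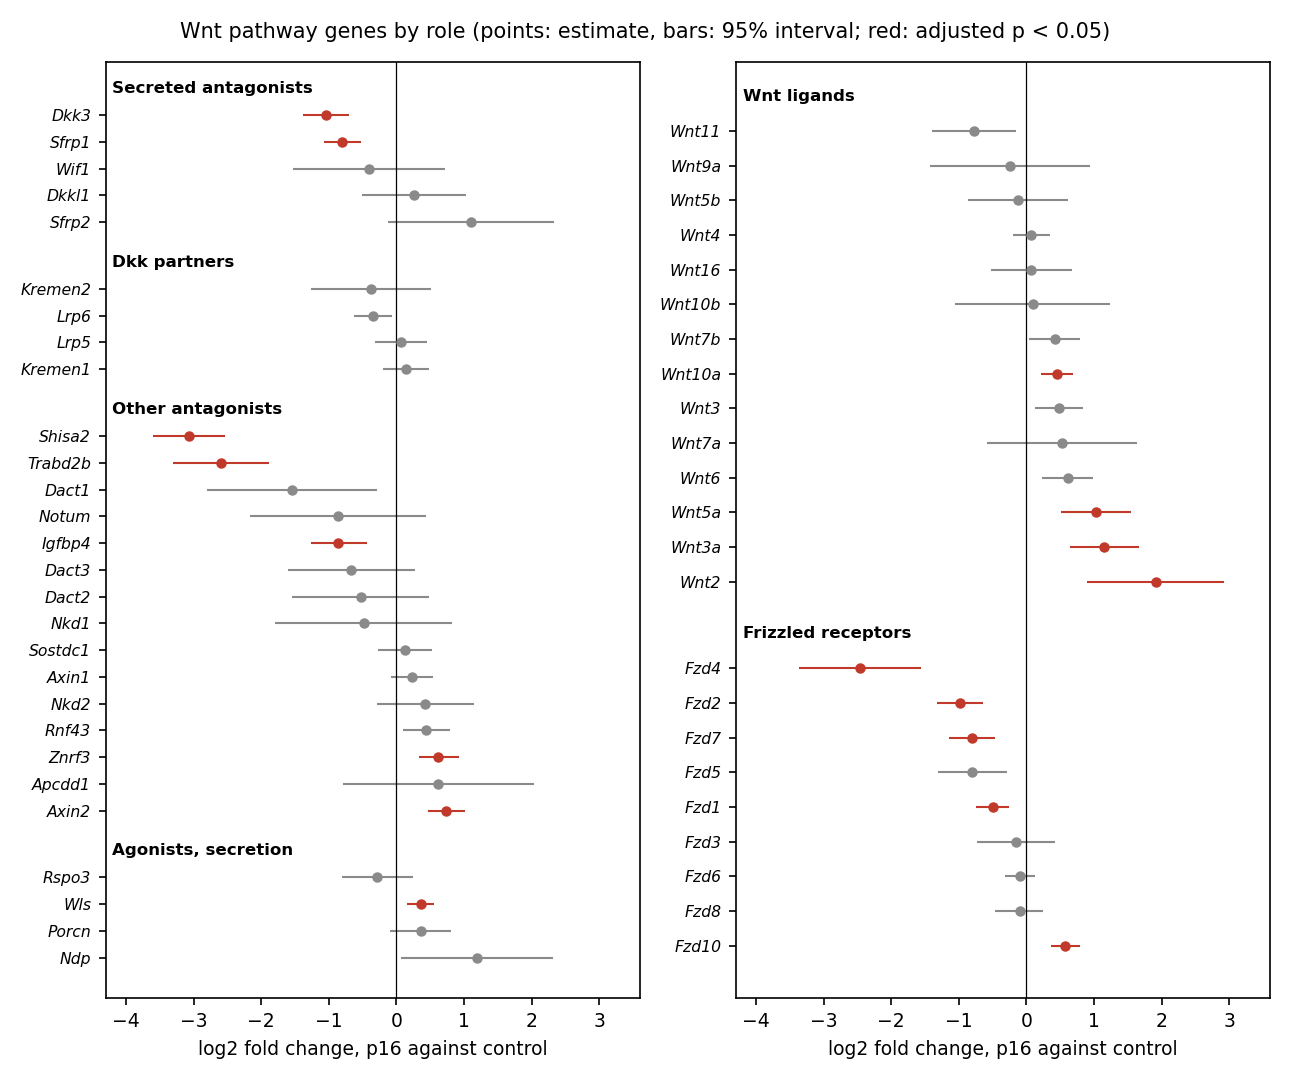
Log2 fold change of p16 against control cells for the tested genes of each role in the Wnt pathway. Points are estimates, bars are 95% intervals and red marks a limma adjusted p under 0.05. Secreted antagonists hold 2 genes called lower and 3 with intervals across 0, and the 4 Dickkopf partners hold 0 called genes.

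Since Sfrp1, Dkk3 and Wif1 are known from the follicle bulge, the marker list of that compartment was set beside them. The summed value of its 7 markers was between 11700 and 15900 in controls and between 9020 and 9100 in p16 cells, without overlap, and 5 of the 7 were called lower. Most of this sum was the keratin Krt15, between 70.8% and 86.8% in every sample. The other 6 markers, summed after these values were seen, were between 2739.8 and 3489.6 in controls and between 1189.7 and 2440.2 in p16 cells. Cd34, the surface marker of bulge cells, was at 238.9, 174.5, 121.9 and 140.6 in the 4 controls and at 8.8, 14.1, 8.0 and 16.4 in the 4 p16 samples, which is 7.0% of the control mean. Lhx2, a transcription factor of follicle stem cells, was at 23.1% of its control mean. Nfatc1 was at 69.8%, Krt15 at 66.5% and Sox9 at 61.8%, beside Sfrp1 at 57.6% and Dkk3 at 48.0%. Lgr5 (62.5%) and Postn (174%) were not called. Krt15 and Sox9 were called in 3 and 4 of the 8 fits with 1 sample left out, and their limma adjusted p reached 0.128 and 0.0896, both without control replicate 4. Without the library labelled p16 replicate 1, or without control replicate 4, 3 of the 7 were called lower. With replicate 3 of both groups left out, 2 of the 7 were.

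The other marker lists were read in the same way. Sebaceous gland markers summed to between 855 and 1030 in controls and between 357 and 491 in p16 cells, without overlap and with 2 of 4 called lower, the desaturase Scd1 and the lipid regulator Pparg. Most of this sum was Scd1, with a mean of 768 in controls and 280 in p16 cells. Fasn, the next in level, was at 162 and 139 and was not called (limma adjusted p = 0.509). Melanocyte markers overlapped, at 68.4 to 438 and 17.2 to 85.9, with 2 of 5 tested called lower, the pigment enzymes Dct and Tyrp1. Both calls were lost without control replicate 1, control replicate 4, p16 replicate 3 or the library labelled p16 replicate 1, and 3 melanocyte markers were called without control replicate 3 or p16 replicate 2. Markers of the outer root sheath and inner follicle layers overlapped, at 9860 to 16100 and 9720 to 12200, with 1 of 6 called lower, the keratin Krt75. Most of this sum was Krt17 and Krt79, neither of them called. All 6 markers had a negative log2 fold change, with a median of -0.71, or -0.29 over the 4 with a mean of at least 5. Basal keratinocyte markers also overlapped, at 23400 to 40600 and 25300 to 28900, with 0 of 6 called. Differentiated keratinocyte markers were at 5330 to 7250 and 5530 to 8840, with 1 of 6 called higher, Lor, and 2 lower, Ivl and Sbsn. The Ivl call held in 5 of 8 fits with 1 sample left out, with a limma adjusted p of 0.073 without control replicate 3, and neither Ivl nor Sbsn was called with replicate 3 of both groups left out. The summed dermal papilla markers were between 17.5 and 36.4 in controls and between 8.2 and 39.1 in p16 cells, and Corin was at 0. Of 3 tested dermal papilla markers, only Crabp1, a retinoic acid binding protein, was called lower. Its control mean was 14.4 ± 2.44 and its p16 mean 2.45 ± 1.12 (SD, n = 4 each), without overlap (adjusted p = 0.00274 in limma). Crabp1 stayed called in all 8 fits with 1 sample left out. The other tested markers were not called. Inhba leaned higher, with a control mean of 3.75 and a p16 mean of 13.5 (adjusted p = 0.0941 in limma). Lef1 was nearly level, at 8.78 and 8.3, and the median log2 fold change of the 3 was 0.07. Immune markers summed to 75.6 to 91.7 and 81.6 to 118, almost wholly from Cd74, and endothelial markers to 1.3 to 5.0 and 3.1 to 6.4, wholly from Pecam1. The part of these compartments in the lower Sfrp1 and Dkk3 values was not tested.

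**Figure D4:**
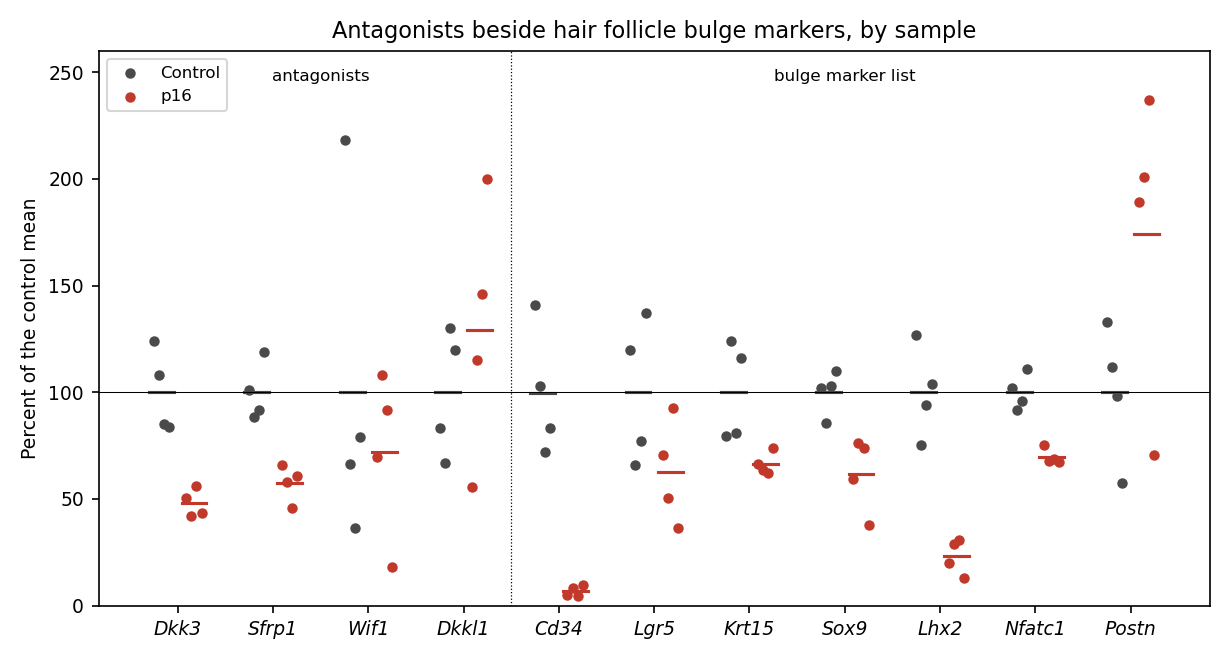
Each sample's normalized value as a percent of the control mean of its gene (y axis) for 4 antagonists and the 7 bulge markers (x axis). Points are samples and short lines are group means. Sfrp1 (57.6%) and Dkk3 (48.0%) lie between Cd34 (7.0%) and Lhx2 (23.1%) on the low side and Nfatc1 (69.8%) and Postn (174%) on the high side. Wif1 spreads from 18% to 108% in p16 samples.

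The genes most like each called member were ranked by the correlation of log2(normalized value + 1) over the 8 samples, among 10430 genes with a mean of at least 10. For Sfrp1 these were Angptl2 (r = 0.972), Inpp4a (0.968) and Atp5j (0.965), and for Dkk3 they were Ccdc90b (0.968), Wnk4 (0.967) and Col6a2 (0.958). The samples share 2 groups and their size factors, so a gene that differs between groups can score high. With 10430 genes ranked over 8 samples, high correlations can also arise by chance, and none of them was tested. Angptl2, which encodes a secreted angiopoietin-like protein, had a mean of 160 in controls and 97.2 in p16 cells (limma adjusted p = 0.00675). Col6a2, a chain of collagen VI, had 26.0 and 3.90 (limma adjusted p = 0.000294), and Wnk4 had 41.1 and 19.5 (limma adjusted p = 0.02). Ccdc90b, Inpp4a and Atp5j were not called.

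Across 17 other settings Sfrp1 and Dkk3 were called in all 17. The log2 fold change of Sfrp1 ran from -0.87 to -0.69 and its limma, edgeR or DESeq2 adjusted p was at most 0.0151, with replicate 3 of both groups left out, the samples whose labels word the library protocol differently. For Dkk3 the log2 fold change ran from -1.18 to -0.93 and the adjusted p was at most 0.0111, in limma without control replicate 1. Wif1, Dkkl1 and Sfrp2 were called in none of the settings in which they were tested.

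**Figure D5:**
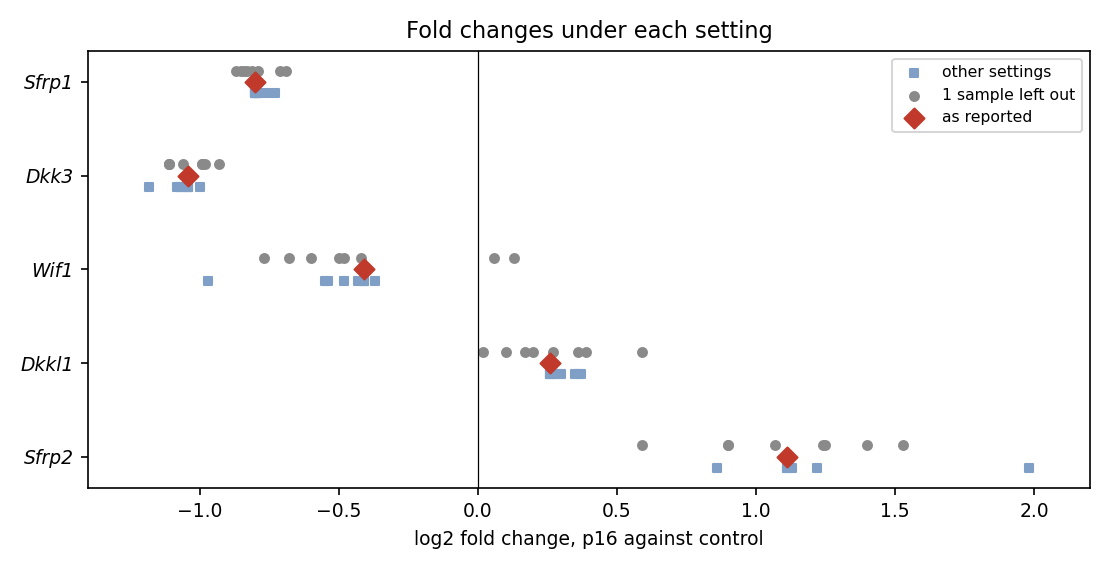
Log2 fold change of p16 against control cells (x axis) of the 5 tested antagonists under each setting. Red diamonds are the values as reported, circles leave out 1 sample and squares change the test, scaling, pseudocount, filter, replicate block or leave out replicate 3. Sfrp1 and Dkk3 stay between -1.18 and -0.69, and Wif1 crosses 0 in 2 circles, at 0.06 and 0.13.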

How the data were processed

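RNA of GFP+ keratinocytes was read from transcript 3′ ends by a modified CEL-Seq2 protocol. The authors trimmed reads with Cutadapt and aligned them to GRCm38 with Tophat2, and their processing notes name HTSeq and DESeq2. The annotation version and any use of molecular identifiers are not given in the sources used here. The signal values in the deposited table are read numbers over a size factor of the sample, kept to 1 decimal. Its further columns of the authors hold group means, log2 ratios, a test statistic and p-values, and were not used. Whole reads were recovered for at least 99.9% of the values of every sample. All pairs of samples within a group differed by more than sampling noise.

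The comparison of p16 with control samples used limma 3.58.1 in R 4.3.3, with a mean-variance trend in eBayes, on log2(normalized value + 1), which understates changes of low genes, for the 12782 genes with a mean of at least 1. The Benjamini-Hochberg adjustment covered all of them, and genes were called at an adjusted p under 0.05. Single genes also had an exact two-sided permutation test. Alternatives were edgeR 4.0.16 and DESeq2 1.42.0 on the recovered reads, equal totals, a pseudocount of 0.1, no filter or a mean of at least 5, a replicate block, each sample left out, replicate 3 of both groups left out, and unadjusted p. The limma step was tested on simulated data with 200 changed genes. The 10 genes and all lists were chosen with earlier results of these data known. Named genes are all members, the called genes of each list, those a result turns on, and the 3 genes most like each called member. Positions are from GENCODE M21 on GRCm38, and all 10 identifiers matched.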

Additional observations from a re-analysis of the deposited data

Results flagged for a closer look

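In groups of 4 samples, a sample was singled out when its distance to the nearest of the others exceeded the 95% critical value of Dixon's test. Of 142 groups looked at (members, pathway genes and summed marker lists), 10 had such a sample, and chance singles out about 1 in 20. Among the members, Dkk1 at 0.8 in p16 replicate 4 and Dkk2 at 0.8 in p16 replicate 1 each rest on a single read. Neither touches a comparison.

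In the p16 group, replicate 4 stood apart at Sostdc1, with 1833.5 where the others were between 3319.8 and 3514.2, at Wnt10a, with 701.3, and at Axin1, with 190.8. The same sample stood apart over all genes, as given above. Igfbp4 was at 783.1 in p16 replicate 2, while the other 3 p16 samples were between 356.8 and 393.7, so the Igfbp4 difference has 1 p16 sample at the control level. Trabd2b was at 6.2 in p16 replicate 3, still below every control. Porcn, which lipid-modifies Wnt proteins, was at 61.0 in control replicate 3 and between 32.1 and 33.6 in the other controls. The summed outer root sheath and inner follicle markers were at 12227.9 in p16 replicate 3, and the summed immune markers at 75.6 in control replicate 1. The labels of replicate 3 of both groups word the library protocol differently, and the cause of these values was not tested.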

How the results depend on the processing

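The number of members called was 2 under every setting run. Over all genes, 493 were called, 334 of them lower (67.7%). This was 223 with replicate 3 of both groups left out and 2038 at an unadjusted p (56.0% lower), and it ran from 261 without the library labelled p16 replicate 1 (263 without control replicate 1) to 539 without p16 replicate 4. The cause of these differences, the smaller number of samples included, was not tested. Wif1 reversed to 0.06 without control replicate 1 and to 0.13 without p16 replicate 4, in a leave-one-out range of -0.77 to 0.13. With a replicate block, 608 genes and 2 members were called. Same-numbered samples correlated by 0.004 to 0.083 in their deviations, and differently numbered ones by -0.1 to 0.058. What a number stands for is not given, and whether same-numbered samples are paired was not tested. Scaling to equal totals moved the median of all genes by 0.034. The edgeR tests and the mean of at least 5 did not test Sfrp2. Depth limits Sfrp2, Dkk1, Dkk2, Sfrp4, Sfrp5 and Frzb, for which a few reads decide each value.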
